A study of Mus musculus with 20 samples.

Results

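Accessible chromatin was compared between mouse neuronal progenitors and the neurons labelled day 1, over all 62877 regions in the deposited table of FAIRE signal. Every region of that table was taken, with no further selection by value, out of 203518 regions in the FAIRE and H3K27ac stage tables together. The authors named these regions potential peaks, and how they were chosen was not given in the sources used here. The quantity described is the day 1 level minus the progenitor level of each region. It is given as deposited, and again after each stage was centred on its own median over all regions.

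FAIRE isolates the DNA that stays free of crosslinked protein when fixed chromatin is extracted with phenol, and so enriches stretches that carry few nucleosomes. Promoters and enhancers in use are typical of such stretches, and which of them are open changes as a dividing neural progenitor becomes a postmitotic neuron. The level read out by sequencing is relative: it says how far a region stands above a reference, and not how many cells have it open.

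The study followed differentiating mouse neurons, and its design text asks how accessible and enhancer chromatin change between stages. The cells carry the strain label 159.2. FAIRE was sequenced from progenitors, from neurons at day 1 and from neurons at day 10, with 2 libraries at each of the 3 stages. The same stages were profiled for H3K27ac, an acetylation of histone H3 found at promoters and enhancers in use.

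For the comparison made here the groups were 2 libraries of progenitors and 2 libraries of day 1 neurons. Their labels name no allele, transgene or treatment. A protocol text attached to all samples describes neurons exposed to NMDA or DMSO, an agent and its solvent, but the labels of these 4 FAIRE libraries name neither. Nothing in the labels says whether the libraries of a stage came from separate cultures. The authors gave 1 merged value per stage, so the spread between libraries cannot be seen, and no p-value is given. The labelled cell types could not be checked against marker genes, because the table names its regions by number and gives their width, with no position or gene.

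A level here is a log2 enrichment. The deposited values followed 1 formula: 16 was added to the merged reads and to the scaled reference reads, and the log2 of their ratio was taken. The same reference was used for every stage of a region. Whole reads could therefore be recovered for 62876 of 62877 regions, and the largest misfit between recovered and deposited values was 6e-15. The recovered reads in regions came to 2784875 in progenitors, 2123389 at day 1 and 1501257 at day 10. The identity of the reference and any matching of depth between stages were not given in the sources used here. A loss of signal common to all regions and a shallower day 1 library therefore cannot be told apart, and this touches every value given as deposited. Nor can fewer cells with a region open be told apart from less opening per cell.

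Most regions were lower in day 1 neurons than in progenitors. The median level was 0.99 in progenitors (quartiles 0.67 and 1.51) and 0.79 at day 1 (quartiles 0.51 and 1.24). The difference was below 0 in 45334 regions (72.1%), exactly 0 in 2452 (3.90%) and above 0 in 15091 (24.0%). Its median was -0.22 on the log2 scale, a ratio of 0.860, and its quartiles were -0.44 and 0.00. Single regions spread around that median by an SD of 0.34 over regions, and the whole range ran from -1.98 to 1.53. The step was thus a small downward shift of a broad distribution, with few regions far from it.

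By deposited level, strongly open regions were fewer at day 1. The counts here use fixed levels without centring, so the limit of depth stated above applies to them. In progenitors 8254 regions (13.1%) had a level of 2 or more, a 4-fold enrichment. At day 1 this number was 5155 (8.20%), and at day 10 it was 466 (0.741%). Levels of 3 or more were reached by 958 regions in progenitors, 280 at day 1 and 18 at day 10. Nearly all regions stood above the reference at both stages, 99.6% of them in progenitors and 99.2% at day 1. The regions are potential peaks, and a choice made for signal would raise these shares by itself, so they are a description.

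Changes of 2-fold or more were rare and, as deposited, almost all downward. They comprised 639 regions at least 2-fold lower (1.02% of all regions) and 28 at least 2-fold higher (0.0445%). Of these, 95 lower and 4 higher regions stood at exactly 2-fold. Only 11 regions were at least 3-fold lower, and 0 were at least 3-fold higher. Once each stage was centred on its median, which moved every difference up by 0.20, the excess of lower regions was gone. The centred counts were 127 lower (0.202%) and 156 higher (0.248%), so the higher regions were 4.20% of those past 2-fold as deposited and 55.1% after centring. At 1.5-fold the same held, with 8495 lower and 800 higher as deposited, and 2642 lower and 2689 higher after centring. Relative to the median region, then, gains and losses were about equally common. Other scalings moved the split in both directions. With both stages scaled to the same total it was 160 lower and 264 higher, and the same scaling without 12 regions described further on gave 220 and 159. With each stage centred on the 1000 regions highest at day 10 it was 49 and 363.

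**Figure D1:**
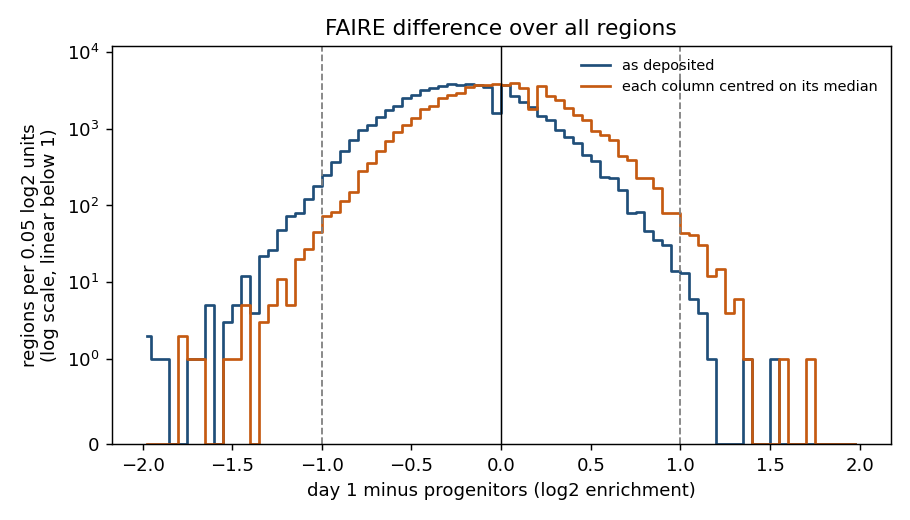
The number of regions (log scale, linear below 1) is plotted against the day 1 minus progenitor difference in log2 enrichment, in steps of 0.05, as deposited (blue) and with each stage centred on its median (orange). Dashed lines mark 2-fold; the blue curve leans to negative values, while the orange curve has 127 regions beyond the lower line and 156 beyond the upper.

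The common shift is small beside the counting error of a single region. The median region held 22 reads in progenitors (quartiles 13 and 42), 17 at day 1 (quartiles 10 and 31) and 10 in the reference. A change from 22 to 17 reads is a ratio of 0.773 with an exact 95% interval from 0.385 to 1.52, which covers counting error only. On the deposited scale, counting error alone corresponds to an SD of 0.25 at these reads, beside the 0.34 seen over regions. The median difference of -0.22 is within the counting SD, while a difference of 2-fold, 1 on the log2 scale, is well outside it. That holds for a single region named beforehand. The regions past 2-fold are the ends of 62877 regions spread around -0.22 by an SD of 0.34. Whether they exceed the ends of that spread was not tested. All 28 regions at least 2-fold higher had a read-ratio interval above 1, with a lowest bound of 1.66. With 16 reads added at both stages, a 2-fold rise needs more than 2-fold the reads, so the selection fixed this in advance. The intervals are a description and do not account for the choice of these regions among 62877. The offset of 16 reads also holds back low regions: with an offset of 1 read, 9529 regions were at least 2-fold lower and 1597 higher, and with 64 reads the counts were 18 and 0.

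Width separated the regions weakly. Regions were 153 to 1910 bp wide, with a median of 233 bp. Regions were ranked and cut into quintiles, 5 groups of equal number. In the narrowest quintile (median 156 bp) the median difference was -0.16, and in the widest quintile (median 467 bp) it was -0.28. The quintiles between them had medians of -0.17, -0.22 and -0.26, so the shift grew steadily with width. The share of regions below 0 was 64.9% in the narrowest quintile and 80.7% in the widest. After centring, the narrowest quintile stood at 0.045 and the widest at -0.076, a gap of -0.12 that is small beside the spread within either quintile.

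Counts past 2-fold followed the same order in part. From narrow to wide, the quintiles held 32, 70, 127, 206 and 204 regions at least 2-fold lower, and 5, 8, 3, 6 and 6 at least 2-fold higher. Wider regions also hold more reads, a median of 77 in progenitors in the widest quintile and 11 in the narrowest. The width trend changed sign with an offset of 1 read, to 0.023. Summed reads showed no such order: the day 1 to progenitor ratio was 0.751 in the narrowest quintile and 0.753 in the widest. Without the 12 regions described further on, which were chosen after their values were seen, these ratios were 0.769 and 0.835.

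Ranking regions by their progenitor level gave the largest gap. The lowest quintile had a median difference of 0.06 and the next quintiles -0.16, -0.28, -0.35 and -0.36. All 28 regions at least 2-fold higher lay in the 4 lower quintiles, 21 of them in the lowest, and 351 of the 639 lower regions lay in the highest quintile. After centring, the medians ran from 0.26 in the lowest quintile to -0.16 in the highest, a gap of -0.43. The progenitor level is itself a term of the difference, so this order is a description.

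The rank used decided the direction. With quintiles of the day 1 level, also a term of the difference, the medians were -0.36, -0.18, -0.12, -0.16 and -0.24, and the gap after centring was 0.13, the opposite sign. With quintiles of the mean of both levels the gap was -0.18. The day 10 level comes from libraries outside the difference, although all 3 stages share the reference. Its quintiles had medians of -0.22, -0.19, -0.19, -0.21 and -0.26, and the gap was -0.042. By these medians, how open a region was at day 10 said little about its change at the first step. Summed reads did show an order. Without the 12 regions described further on, their ratios were 0.724, 0.745, 0.757, 0.770 and 0.869 from the lowest to the highest quintile. Median progenitor reads were 16 in the lowest and 74 in the highest, so the offset of 16 reads holds back the lower quintiles more. Within quintiles of width, the gap by progenitor level was -0.52 on average.

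**Figure D2:**
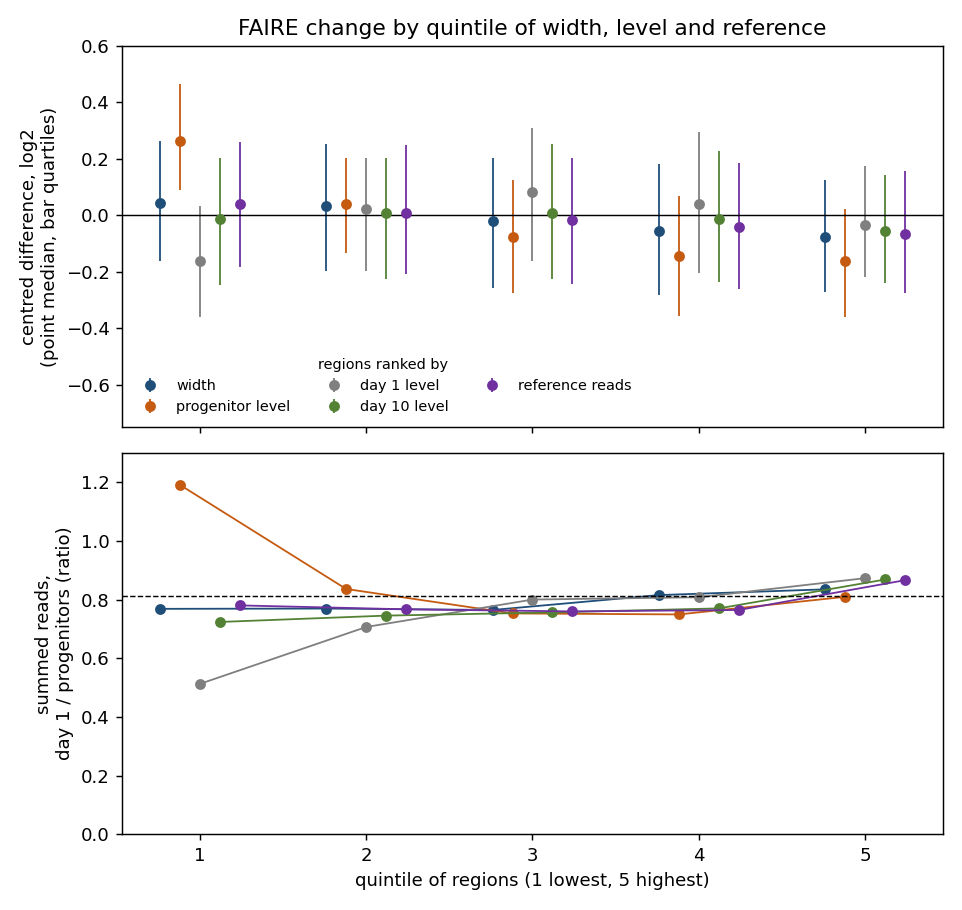
The upper panel plots the median centred log2 difference (points) and its quartiles (bars) in quintiles of the regions ranked by width, progenitor level, day 1 level, day 10 level or reference reads. The lower panel plots the ratio of summed reads, day 1 over progenitors, in the same quintiles without the 12 regions described in the text. Its dashed line is the ratio of 0.813 over all other regions. In the upper panel the progenitor rank falls from 0.26 in the lowest quintile to -0.16 in the highest. The day 1 rank starts at -0.16, peaks at 0.084 in the middle quintile and ends at -0.035, while the other ranks stay near 0.

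The highest progenitor levels showed 2 behaviours. Among the 948 regions with levels from 3 to 4, the median difference was -0.39 and 96.3% were lower at day 1. Above a level of 4 there were 10 regions, of which 7 were higher at day 1, by 0.17 to 0.30. Of the other 3, regions 22640 and 26484 had differences of -0.34 and -0.41, and region 62018, one of the 12 described below, had a difference of -1.31. So most of the 10 went against the common shift. As deposited, the regions just under them had a lower median difference than the -0.22 of all regions. They held a median of 194 progenitor reads, beside 22, and the added offset holds back regions with few reads. Without the 12, their summed reads gave a ratio of 0.749, beside 0.813 over all regions. The median reads of all regions gave 0.773. The progenitor level is also a term of the difference. Whether these regions changed more than the median region was thus not shown. These level classes were chosen after their values were seen.

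The 3 highest regions carry consecutive numbers. Region 26049, 1806 bp wide, had a level of 5.47 in progenitors, 5.71 at day 1 and 4.004 at day 10, from 17685, 20829 and 6386 reads. Region 26050, 1674 bp wide, had levels of 5.40, 5.66 and 3.94. Region 26051, 925 bp wide, had levels of 5.31, 5.62 and 3.98. All 3 were a little higher at day 1 and much lower at day 10. Their read ratios between day 1 and progenitors were 1.18 (1.15 to 1.20), 1.20 (1.17 to 1.23) and 1.24 (1.20 to 1.27), each interval above 1 and above the 0.813 of all regions outside the 12.

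**Figure D3:**
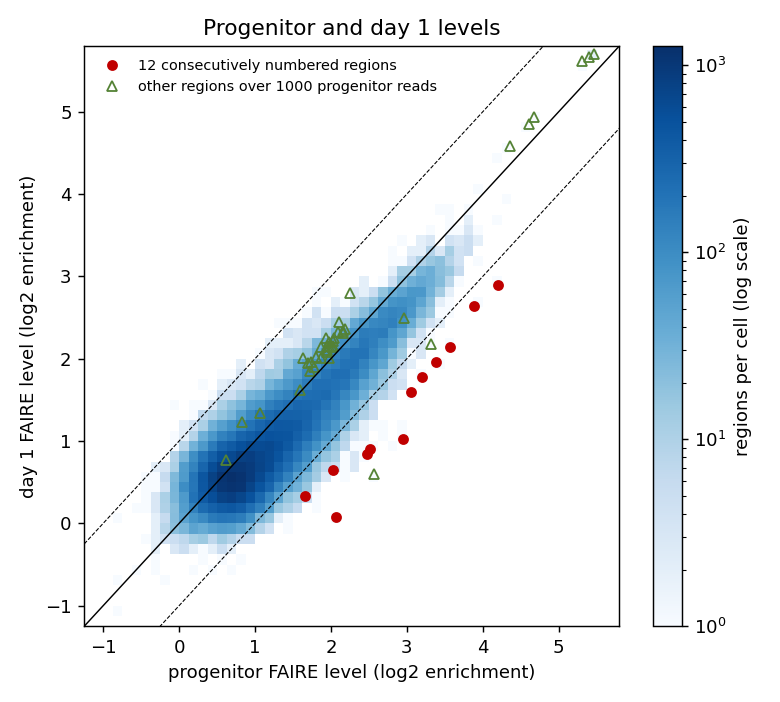
Each shaded cell counts regions (log colour scale) by their progenitor level (horizontal) and day 1 level (vertical), both as log2 enrichment, with a solid line of no change and dashed lines at 2-fold. Red points are 12 consecutively numbered regions, all below the lower dashed line, and green triangles are the 38 other regions with over 1000 progenitor reads, 35 of them above the line of no change.

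A run of 12 consecutively numbered regions stood apart by its reads and by a fall shared by all its members. Regions 62013 to 62024 each held 4302 to 82554 progenitor reads, and all 12 were at least 2-fold lower at day 1. They are 0.0191% of the regions, but held 11.2% of the progenitor reads, 5.33% of the day 1 reads and 26.6% of the day 10 reads. The run was picked out after the values were seen, as the one stretch of at least 10 neighbouring numbers with over 1000 progenitor reads each.

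The 12 regions were lowest at day 1. Their median level was 3.01 in progenitors, 1.31 at day 1 and 3.22 at day 10. Differences at day 1 ran from -1.98 to -1.249, with a median of -1.42. All 12 were higher at day 10 than at day 1, by 1.09 to 2.80, and 8 of the 12 stood above their progenitor level at day 10. Their summed reads gave a day 1 to progenitor ratio of 0.364 (0.362 to 0.367). In all 12 the lowest of the 3 stages was day 1, while over all regions the lowest median was at day 10.

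Progenitor levels within the run spanned a wider range than the differences at day 1. Region 62018, 275 bp wide, was the highest, with levels of 4.21, 2.89 and 3.99. Region 62014, 245 bp wide, was the lowest in progenitors, with levels of 1.65, 0.34 and 2.70. Region 62022, 220 bp wide, had the largest difference of the whole table: its levels were 2.06, 0.08 and 2.88, from 4302, 1075 and 7568 reads, and its read ratio was 0.250 (0.234 to 0.267). At day 1 it was almost level with the reference. The 3 widest of the run, regions 62017 (1804 bp), 62023 (1334 bp) and 62013 (1037 bp), had differences of -1.46, -1.42 and -1.63.

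The neighbours on both sides did not share this course. Of the 5 numbers before the run and the 5 after it, 4 were lower at day 1. Region 62012, directly before the run and the widest of the table at 1910 bp, had levels of 1.32, 1.56 and 0.95, with a read ratio of 1.19 (1.06 to 1.33). Region 62025, directly after it, had levels of 0.77, 1.14 and 0.73. The change thus started and stopped sharply in the numbering. The reference was also high inside the run, with 1173 to 32515 reads per region.

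**Figure D4:**
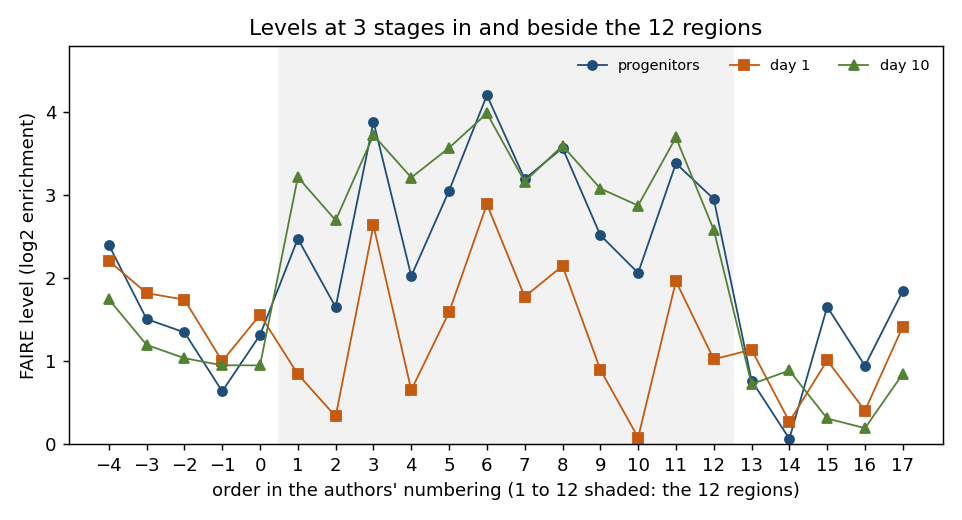
FAIRE levels (log2 enrichment) in progenitors, day 1 and day 10 neurons are plotted in the order of the authors' numbering, with positions 1 to 12 (shaded) for the run and 5 regions on each side. Inside the shading the day 1 line lies below both other lines at all 12 positions, and outside it the day 1 line is nowhere the lowest.

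Region 323, elsewhere in the numbering and 286 bp wide, had the same course. Its levels were 2.57 in progenitors, 0.59 at day 1 and 2.85 at day 10, from 1003, 244 and 1224 reads, with a read ratio of 0.243 (0.211 to 0.280). It was the second largest difference of the table among regions with at least 50 reads. Whether it is related to the run cannot be told without positions.

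The 12 regions bear on any scaling by totals. Summed over all regions, the day 1 to progenitor read ratio was 0.762 (0.761 to 0.764), and without the 12 it was 0.813 (0.811 to 0.814). Scaling both stages to the same total over all regions gave a median difference of 0.0068 and 160 lower and 264 higher regions. The same scaling without the 12 gave -0.048, 220 lower and 159 higher. As deposited, leaving them out took the lower count from 639 to 627 and changed neither the median nor the higher count.

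Outside the run, losses were scattered. The 639 lower regions formed 617 runs in the numbering, of which 605 were single regions and 11 were pairs, and the run of 12 was the only one of 3 or more. The 627 lower regions outside it were moderately open in progenitors, with median levels of 1.73 in progenitors, 0.61 at day 1 and 0.42 at day 10. Over all regions the medians were 0.99, 0.79 and 0.44, so by day 10 these regions stood beside the typical one. Their median width was 290 bp, and their median reads were 51, 14 and 11 at the 3 stages. Of the 627, 178 (28.4%) were higher at day 10 than at day 1, as the run was, beside 14.1% of all regions. The difference chose the 627 and the day 1 value enters the later step too, so these levels and counts are a description only.

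Single losses reached the reference level. At day 1, 38 of the 627 stood at or below the reference, beside 521 of all 62877 regions. The day 1 value helped to choose the 627, so this count is a description. Region 49145, 664 bp wide, had levels of 2.81, 0.92 and 0.03 from 163, 32 and 10 reads, a read ratio of 0.196 (0.130 to 0.288). It was lower at each step. Region 43437, 646 bp wide, had the same order, with levels of 2.88, 1.15 and 0.48 and a read ratio of 0.237 (0.163 to 0.336). Region 49516, only 155 bp wide, had 51 reads in progenitors and 5 at day 1, with levels of 1.84, 0.16 and 0.42. These 3 regions were named after their values were seen, as the next largest differences outside the run after region 323.

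Regions at the median difference show the size of the common shift. The 2 named here are typical in difference only: over all regions the progenitor medians were a level of 0.99 and 22 reads. Regions 14019 (520 bp) and 45171 (786 bp), among the 100 regions nearest the median difference those with the highest progenitor levels, both went from a level of 3.218 to 3.001, with 184 and 156 reads. Their read ratio of 0.848 had an interval from 0.681 to 1.06, which includes 1. At day 10 they had parted, to levels of 2.16 and 1.76. Even at such reads the common shift of the table could not be told from no change in a single region.

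As deposited, gains were few and started from few progenitor reads. The 28 regions at least 2-fold higher were 153 to 570 bp wide, with a median of 229 bp. Their median level was 0.37 in progenitors, 1.46 at day 1 and 0.49 at day 10. They held 1 to 60 reads in progenitors and 19 to 148 at day 1. Median reads were 10 and 39, beside 22 and 17 over all regions. At least 50 reads over both stages were held by 14 of the 28, beside 24318 of all 62877 regions. Of the 28, 27 were lower at day 10 than at day 1 and 0 were higher, beside 82.7% lower and 14.1% higher over all regions. The day 1 value chose them and enters this step too, so the count is a description. All 28 were single in the numbering.

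The 2 largest gains with at least 50 reads differed in what followed. Region 41442, 365 bp wide, had levels of 0.21, 1.40 and 1.10, from 10, 43 and 32 reads, and a read ratio of 4.3 (2.13 to 9.60). It kept most of its day 1 level at day 10. Region 25121, 570 bp wide, had levels of 1.29, 2.43 and 0.99, from 47, 123 and 35 reads, and a read ratio of 2.62 (1.86 to 3.75). It ended below where it began. The largest difference of all, 1.53 in region 42316 (252 bp), rested on 2 reads in progenitors and 36 at day 1, and its ratio of 18.0 had an interval from 4.63 to 154.3.

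Centring gave a larger group of gains with a like course. The 156 regions at least 2-fold higher after centring had median levels of 0.46, 1.40 and 0.55 and a median width of 269 bp. Of them 151 were lower at day 10 than at day 1 and 4 were higher, where 82.7% and 14.1% of all regions were. The day 1 value chose these regions as well. In the numbering they formed 148 runs, of which 142 were single regions, 5 were pairs and the longest held 4.

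**Figure D5:**
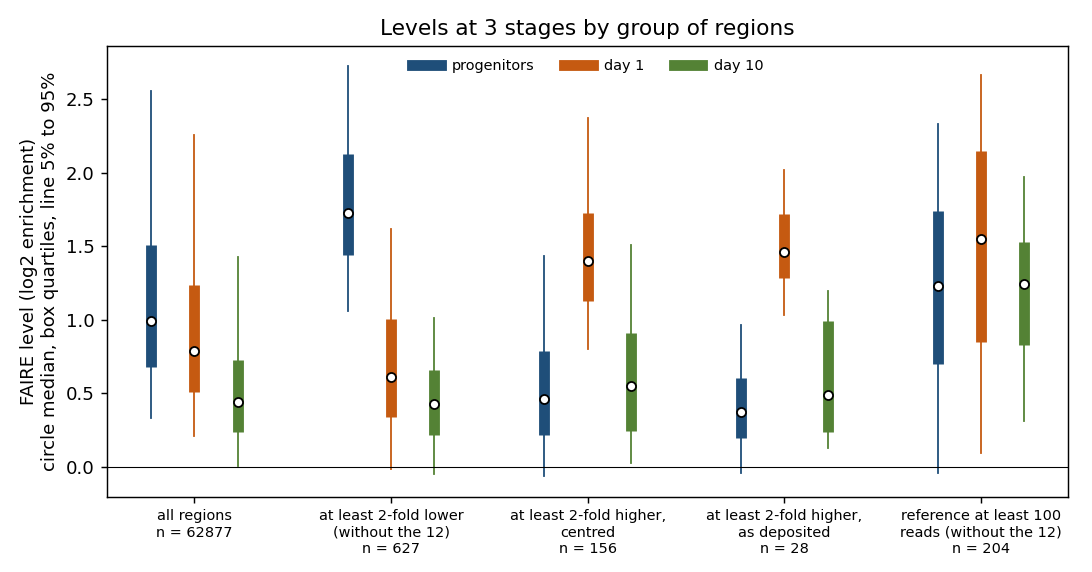
FAIRE levels (log2 enrichment) at the 3 stages are drawn for all regions, the 627 regions at least 2-fold lower outside the run, the 156 higher after centring, the 28 higher as deposited and the 204 with at least 100 reference reads outside the run; circles are medians, boxes quartiles and lines the range from 5% to 95%. The lower regions start at a median of 1.73 and reach 0.61 at day 1, the higher regions peak at day 1, and the regions with a high reference are highest at day 1 with a median of 1.55.

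Regions with a high reference moved against the common shift. Outside the run, 204 regions had at least 100 reference reads, a value that all stages share. Of these 175 (85.8%) were higher at day 1, where 23.8% of the 62660 regions with fewer reference reads were. Their median difference was 0.30 (quartiles 0.14 and 0.53), beside -0.22 in the others, and their summed reads gave ratios of 1.18 (1.17 to 1.18) and 0.771 (0.770 to 0.773). Median levels were 1.23 in progenitors, 1.55 at day 1 and 1.24 at day 10, so these regions were highest at day 1. The limit of 100 reads was chosen after the values were seen, and no test was made.

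The same split was seen among regions with many reads at day 10. Among regions with at least 100 reads at day 10, a stage outside the difference, 159 had a high reference and 184 did not. The first had a median difference of 0.36, with 143 higher at day 1. The second had a median difference of -0.32, with 15 higher at day 1. Progenitor reads had medians of 285 (quartiles 146 and 901) and 259.5 (quartiles 220.5 and 294), and median progenitor levels were 1.41 and 3.36. The groups thus differed in level and in the spread of reads as well as in the reference, and the part of each was not tested. A high reference did not always go with a higher day 1 level: the run of 12 and region 323, with 512 reference reads, were lower.

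The 38 regions outside the run with over 1000 progenitor reads showed it again. Of these 37 had at least 100 reference reads, so they largely repeat the group just described. Many of the 38 lie close together in the numbering, above all between 58454 and 58477, so they are not evenly spread over the table. Regions 26049 to 26051 and regions 33633 and 33634 are neighbours as well. The difference was above 0 in 35 and below 0 in 3, with a median of 0.21 and a range from -1.97 to 0.54. Region 7715, 1518 bp wide, was the highest, with levels of 2.25, 2.80 and 1.98 from 1104, 1614 and 908 reads. The 3 below 0 were region 323 and regions 58465 and 58457, the last 2 from the same stretch of numbers. Region 58465, 421 bp wide, had levels of 3.32, 2.17 and 1.34, and region 58457, 257 bp wide, had levels of 2.96, 2.49 and 2.02. Unlike region 323, these last 2 were lower at each step.

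Other rankings gave smaller departures. By quintiles of reference reads over the whole table the median differences were -0.16, -0.19, -0.22, -0.24 and -0.27. This is the opposite order to that of the few regions at the top. Summed reads without the run did not show it: their ratios were 0.780, 0.767, 0.760, 0.765 and 0.866. The 1000 regions highest at day 10, leaving out the run, had a median difference of -0.30, and 103 of them were higher at day 1. The widest 1% of regions, 629 regions of 802 to 1910 bp, had a median difference of -0.26. Without the run, summed reads gave ratios of 0.927 in the 1000 regions and 0.970 in the widest 1%, closer to 1 than the 0.813 of all regions. The medians of both groups went the other way, further below 0 than the -0.22 of all regions. Sums weight the regions with most reads: in the 1000, progenitor reads reached 35592 beside a median of 178. The ratios and medians thus do not show whether the typical wide or open region changed less or more than the median region. Regions that were wide and among the lowest at day 10, 476 in all, had a median difference of -0.37, and 34 of them (7.14%) were at least 2-fold lower, beside 1.02% of all regions. After centring 10 of them (2.10%) were, beside 0.202%.

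The next step in the same table was larger. From day 1 to day 10 the median difference was -0.40, with an SD of 0.42 over regions and 82.7% of regions below 0. At least 2-fold lower were 5484 regions (8.72%) and at least 2-fold higher 32 (0.0509%), beside 639 and 28 at the first step. After centring, the later step had 995 lower (1.58%) and 292 higher (0.464%). Both steps share the day 1 values, so they are set side by side and no overlap is given.

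H3K27ac differed more between the same stages, and in both directions. Over 140641 regions of a separately made table, the median difference between day 1 and progenitors was -0.06, with quartiles of -0.43 and 0.34 and an SD of 0.66. The range ran from -4.60 to 3.71. At least 2-fold lower were 7801 regions (5.55%) and at least 2-fold higher 9608 (6.83%), and centring left these shares at 5.57% and 6.55%. Median reads per region were 24 at both stages, close to the 22 and 17 of FAIRE. The regions of the tables carry no positions here, so FAIRE and H3K27ac were not matched region by region, and the gap between the assays was not tested.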

How the data were processed

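Mouse FAIRE-seq values were taken from the deposited table, in which the authors give 1 merged log2 enrichment per stage and the width in bp for each region. H3K27ac values came from a like deposited table of log2 enrichments. Per the submitters' processing notes, the build was mm9, and TopHat, Bowtie, HTSeq and DESeq were named with neither roles nor versions. Steps of aligning, merging and depth-matching for these tables were not given in the sources used here.

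Whole reads were recovered from the log2 values in Python 3.11.15 with numpy 2.4.6, pandas 2.3.3 and scipy 1.17.1. Each value equalled the log2 of merged reads plus 16 over 0.304993 times the reference reads plus 16 (0.807 for H3K27ac), with a relative tolerance of 1e-09 on reads. This fitted 99.9984% of FAIRE regions (all but 1) and 100% of H3K27ac regions. The recovery was tested on simulated data.

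Differences were described by medians, quartiles and counts past 2-fold (ties included, tolerance 1e-09), as deposited and centred, in 5 bins of width, level or reference reads. Intervals of read ratios are exact binomial (Clopper-Pearson, 95%), conditional on the sum of both reads, and cover counting error only, since reads are not independent molecules. With 1 merged value per stage no test between stages was possible.

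Regions were named by rule among those with at least 50 reads over both stages: the 2 largest falls, rises, progenitor levels and widths, and, of the 100 nearest the median difference, the 2 highest in progenitors. All other named regions were chosen after their values were seen. The comparison, the ranks and the groups were chosen with earlier results of these data known. Alternatives covered scaling, offset, read minimum, fold, bins and regions used. Tables on NMDA treatment and RNA were not used here.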

Additional observations from a re-analysis of the deposited data

How the results depend on the processing

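The median difference of -0.22 kept its sign with an offset of 1 read (-0.36) or 64 reads (-0.096), with at least 20 reads (-0.24) or 50 reads (-0.30), and without the narrowest quintile (-0.23). Centring gave -0.014, scaling to the same total 0.0068 (-0.048 without the 12 consecutively numbered regions, chosen after seeing the data), and centring on the 1000 regions highest at day 10 gave 0.10, so its sign rests on the scaling. The 639 lower and 28 higher regions became 127 and 156 after centring, 160 and 264 at the same total (220 and 159 without the 12), 49 and 363 centred on the 1000, 9529 and 1597 with an offset of 1 read, 18 and 0 with 64, 8495 and 800 at 1.5-fold, and 11 and 0 at 3-fold. With at least 50 reads 14 higher regions were left, by construction from fewer regions.

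The width gap of -0.12 was -0.078 with at least 20 reads and 0.023 with an offset of 1 read. The progenitor-level gap of -0.43 was -0.53 in 10 bins, -0.61 and -0.26 with offsets of 1 and 64 reads, -0.52 within quintiles of width, -0.18 by the mean level, -0.042 by the day 10 level and 0.13 by the day 1 level. Except where the construction of an alternative shows it, the cause was not tested. No paired analysis was possible because each stage is given as 1 merged column, and leaving out each library was not run for the same reason. Depth limits single regions: at a median of 22 and 17 reads the counting SD of 0.25 exceeds the size of the median difference.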
